A study of Homo sapiens with 9 samples.

Results

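PC-3 spheroids that over-expressed NF-YAl, the long splice form of the transcription factor subunit NF-YA, were compared with spheroids of the same line that carried the empty vector. The comparison rests on 6 of the 9 libraries of the series, 3 of NF-YAl (A, B and D) and 3 of Empty (A, B and C), and it takes in every gene and every transcript of the deposited tables. PC-3 is an established cell line from a bone metastasis of prostate cancer. The cells were infected with pSIN lentivirus and selected with puromycin, so Empty cells had passed through infection and selection as well. The transgene encodes the murine isoform, and each construct is represented by its stable line. Cells were grown as multicellular tumor spheroids (MTSs) in medium with Matrigel, and many spheroids were pooled for each RNA extraction. The methods give 3 independent experiments, and the p-values below measure the spread between these samples. The 3 remaining libraries come from MTSs over-expressing NF-YAs, the short isoform, and serve below as a second reference only.

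NF-Y is a trimer whose subunits NF-YB and NF-YC pair like histones, and with NF-YA it binds CCAAT boxes, which often lie shortly before the start of cell cycle, lipid synthesis and stress response genes. NF-YA gives the sequence specificity, and its long and short forms differ by an exon (exon 3) in the activation domain. In bulk spheroid RNA, fewer cells of one kind and less RNA per cell cannot be told apart.

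The 6 libraries held between 18092007 and 27163976 expected counts. NF-YAl D stood apart from NF-YAl A and B on the third principal component, which took 9.36% of the variance, and Empty libraries lay closer to each other than NF-YAl libraries did (Pearson's r of 0.993 to 0.996 against 0.975 to 0.988 across genes). The targeted gene was higher in the libraries labelled for it: NFYA read 89.2, 96.7 and 89.4 CPM (counts scaled by library size) in Empty A, B and C and 287, 383 and 353 CPM in NF-YAl A, B and D, a log2 fold change of 1.89 (SE 0.11, adjusted p = 6.41e-07, edgeR). The transcript with exon 3 took 29.7, 62.2 and 54.7% of NFYA TPM (transcript abundance per length) in Empty and 29.7, 29.5 and 66.1% in NF-YAl. The NF-YAl libraries overlapped the Empty libraries (difference -7.09 points, exact permutation p = 0.9, n = 3 per group, where 0.1 is the smallest possible), so the share on human transcripts did not separate the isoform from the vector. The difference ranged from -0.44 points without Empty B to -19.2 points without NF-YAl D. Against NF-YAs, where the share was 22.99, 9.02 and 22.1%, the NF-YAl libraries were higher by 23.7 points without overlap (exact permutation p = 0.1, the smallest possible). How reads of the murine transgene were divided over the human transcripts was not tested. NFYB and NFYC, the partner subunits, did not pass the test, with log2 fold changes of 0.62 and 0.43.

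Epithelial markers of PC-3 were present in all 6 libraries, with KRT18 at 242 to 375 CPM, while EPCAM stood near 1 CPM in Empty (0.945 to 1.05) and at 3.35 to 5.30 in NF-YAl. KLK3 was at 0 throughout. Of 16 leukocyte markers, 13 stayed below 1 CPM in every library. The same held for 6 of 14 fibroblast and pericyte markers, DCN and LUM among them, and for 5 of 12 endothelial markers, CDH5 and TEK among them. The other markers of these 2 classes were detected in PC-3 spheroids. The summed fibroblast markers were 421 to 521 CPM in Empty and 326 to 552 CPM in NF-YAl, with COL6A3 and COL3A1 among the highest, and their part in the results below was not tested.

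Because NF-Y acts through CCAAT, the promoters of genes that moved were read first. The sequences below are the 100 bases before the annotated start (GENCODE transcripts on GRCh37, written 5′ to 3′ along the gene), shown for some of the named genes with the largest changes that hold the motif. Capitals mark CCAAT, or ATTGG where the motif lies on the other strand. The first 4 genes rose in NF-YAl MTSs and the next 3 fell.
RUNX3 (chr1:25256768-25256867, minus strand): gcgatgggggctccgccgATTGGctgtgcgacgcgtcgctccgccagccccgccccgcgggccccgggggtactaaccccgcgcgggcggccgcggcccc
COX7B2 (chr4:46911263-46911362, minus strand): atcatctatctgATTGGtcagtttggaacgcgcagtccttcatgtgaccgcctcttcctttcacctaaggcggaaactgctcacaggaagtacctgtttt
TCN1 (chr11:59633961-59634060, minus strand): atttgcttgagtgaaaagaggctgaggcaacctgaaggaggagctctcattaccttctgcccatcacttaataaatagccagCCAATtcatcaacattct
EGFL7 (chr9:139557268-139557367, plus strand): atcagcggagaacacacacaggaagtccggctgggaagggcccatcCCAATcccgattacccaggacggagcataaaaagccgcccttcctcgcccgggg
TIMP3 (chr22:33197591-33197690, plus strand): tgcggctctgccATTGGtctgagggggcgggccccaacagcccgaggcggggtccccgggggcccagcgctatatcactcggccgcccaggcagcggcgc
LINC01234 (chr12:114211492-114211591, minus strand): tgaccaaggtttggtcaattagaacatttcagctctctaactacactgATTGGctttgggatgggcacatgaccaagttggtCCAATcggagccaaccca
FGFBP1 (chr4:15940364-15940463, minus strand): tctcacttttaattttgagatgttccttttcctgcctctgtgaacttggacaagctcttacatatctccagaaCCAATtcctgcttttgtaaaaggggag

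Within 250 bases before to 50 after the start, on either strand, 35.5% of the 15160 tested genes with a matched promoter held the motif, as did 31.1% of 768 genes that rose and 33.2% of 545 that fell. Conversely, 4.44% of genes with CCAAT rose and 3.36% fell, against 5.41% and 3.72% of those without. The share differed between lists: 79.3% of 58 G2/M genes held the motif, 75% of endoplasmic reticulum stress genes, 71.4% of HOX genes, 67.5% of neural transcription factors, 66.7% of detoxification genes and 62.5% of lipid synthesis genes. Interferon-stimulated genes held it in 43.1%, collagens in 31.3% and integrins in 14.3%. MKI67 and CENPF, which mark cycling cells, are shown as members of the G2/M list with the motif.
MKI67 (chr10:129924688-129924787, minus strand): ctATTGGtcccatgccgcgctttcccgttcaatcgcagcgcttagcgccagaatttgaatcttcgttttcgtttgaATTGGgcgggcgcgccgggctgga
CENPF (chr1:214776438-214776537, plus strand): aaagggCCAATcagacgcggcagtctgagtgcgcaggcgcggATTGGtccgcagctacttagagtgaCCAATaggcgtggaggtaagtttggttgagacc

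Of 27111 genes in the tables, 17108 were tested, and 815 rose (4.76%) while 599 fell (3.5%) at an adjusted p under 0.01 and a log2 fold change beyond 1 in size. Below, "rose" and "fell" mean that both limits were passed. List counts below are to be read against these 4.76% and 3.5% of all tested genes. In 812 of the 815 and in all 599, the NF-YAl and Empty libraries did not overlap, as in 7248 of all 17108 tested genes. Calls and overlap rest on the same values, so the overlap is no further evidence for the calls. The 2 directions were found at different levels: among the 2488 genes that reached 100 CPM in either group mean, 32 rose and 110 fell, whereas 79 of the genes that rose stood at or below 3 counts in every Empty library and 28 of those that fell did so in every NF-YAl library. Changes beyond 4-fold were more often upward, with 338 genes above 2 on the log2 scale and 151 below -2. The median over all tested genes was 0.01.

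**Figure D1:**
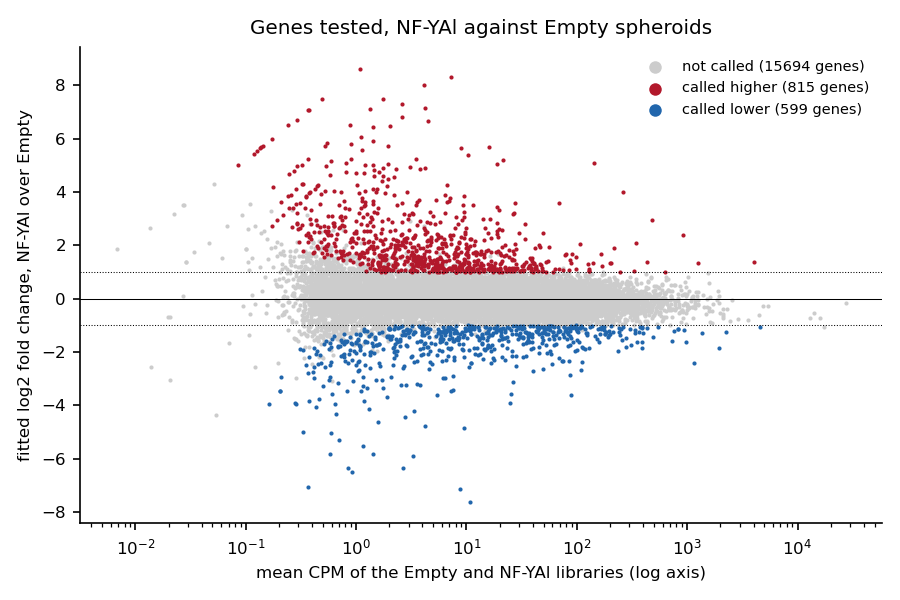
Fitted log2 fold change of NF-YAl over Empty (y axis) against mean CPM on a log axis (x axis), 1 point per tested gene, with dotted lines at 1 and -1. The 815 genes called higher spread over low and middle levels, and at 100 CPM or more the 110 called lower outnumber the 32 called higher.

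Of the function lists, the largest share called in 1 direction was among the interferon-stimulated genes, the antiviral program that type I interferon switches on. Of 66 tested members, 41 fell (62.1%) and none rose, with a list median of -1.17 against 0.01 for all genes. In 59 of the 66, all 3 NF-YAl libraries were lower than all 3 Empty libraries, as in 3657 of all 17108 tested genes. The 3 NF-YAl libraries were alike, with list medians of -1.13, -1.25 and -1.20 on the log2(CPM + 1) scale against the Empty mean. MX1 and MX2 encode GTPases that trap viral ribonucleoproteins. MX1 stood at 167, 201 and 192 CPM in Empty A, B and C and at 29.97, 29.5 and 28.9 CPM in NF-YAl A, B and D. The NF-YAl libraries were nearly equal and all lay below every Empty library (log2 fold change -2.66, SE 0.23, adjusted p = 7.59e-06). MX2 went from 41.7, 45.6 and 54.8 CPM to 5.46, 5.52 and 5.42 CPM (-3.11, SE 0.29, adjusted p = 1.20e-05).

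The oligoadenylate synthetases, which make the messenger that activates RNase L, fell with them. OAS1 read 126, 154 and 182 CPM in Empty and 25.04, 19.6 and 18.9 CPM in NF-YAl, without overlap, for a log2 fold change of -2.86 (SE 0.21). OAS3 read 618, 594 and 606 CPM in Empty and 148, 181 and 169 CPM in NF-YAl (-1.87, SE 0.17). IFI27, a mitochondrial interferon-induced protein, fell by 2.89 on the log2 scale from 16.4, 11.2 and 12.5 CPM to 1.91, 1.02 and 2.46 CPM. Outside the naming rule, 3 members were chosen for their role after their values were seen. ISG15, a ubiquitin-like modifier, fell from 474 ± 10.3 to 142 ± 7.43 CPM (SD, n = 3 each). BST2, which tethers budding virions, fell from 85.2 ± 5.04 to 13.8 ± 2.404 CPM. IRF9, part of the factor that drives these genes, fell by 1.05 on the log2 scale, from 52.8, 64.5 and 68.2 CPM to 35.3, 28.6 and 25.6 CPM.

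B2M, the light chain of class I antigen-presenting molecules, did not pass the test. It read 446, 484 and 427 CPM in Empty and 539, 468 and 614 CPM in NF-YAl, with overlapping libraries (log2 fold change 0.26, adjusted p = 0.143). Against NF-YAs MTSs, 26 of the 66 members were lower in NF-YAl and none higher, with 65 of 66 fold changes negative and a median of -0.89. Over all genes, 2.86% were called lower and 1.74% higher in that comparison. MX1 was 2.01 lower on the log2 scale in NF-YAl than in NF-YAs (adjusted p = 1.12e-04).

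A letter pattern of the interferon response element, 2 GAAA runs with any 2 bases between them on either strand, lay in the promoters of 60% of 65 interferon-stimulated genes and of 3.07% of all tested genes. It was about as frequent in members that fell (62.5% of 40) as in those not called (56% of 25). Among all genes that fell it was present in 8.99%, and among those that rose in 2.99%. The 4 members below fell and have the highest level in Empty among those with the pattern in the last 100 bases, which capitals mark.
OAS3 (chr12:113376179-113376278, plus strand): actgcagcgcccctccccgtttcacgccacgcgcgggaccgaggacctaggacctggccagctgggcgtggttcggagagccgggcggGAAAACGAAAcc
LGALS3BP (chr17:76976006-76976105, minus strand): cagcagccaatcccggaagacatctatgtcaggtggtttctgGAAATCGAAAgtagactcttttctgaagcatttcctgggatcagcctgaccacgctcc
IFI6 (chr1:27998704-27998803, minus strand): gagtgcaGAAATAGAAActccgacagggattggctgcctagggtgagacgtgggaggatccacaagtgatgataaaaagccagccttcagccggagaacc
IFITM3 (chr11:320861-320960, minus strand): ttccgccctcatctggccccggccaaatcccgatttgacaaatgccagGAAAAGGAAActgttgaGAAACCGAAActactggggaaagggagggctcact

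**Figure D2:**
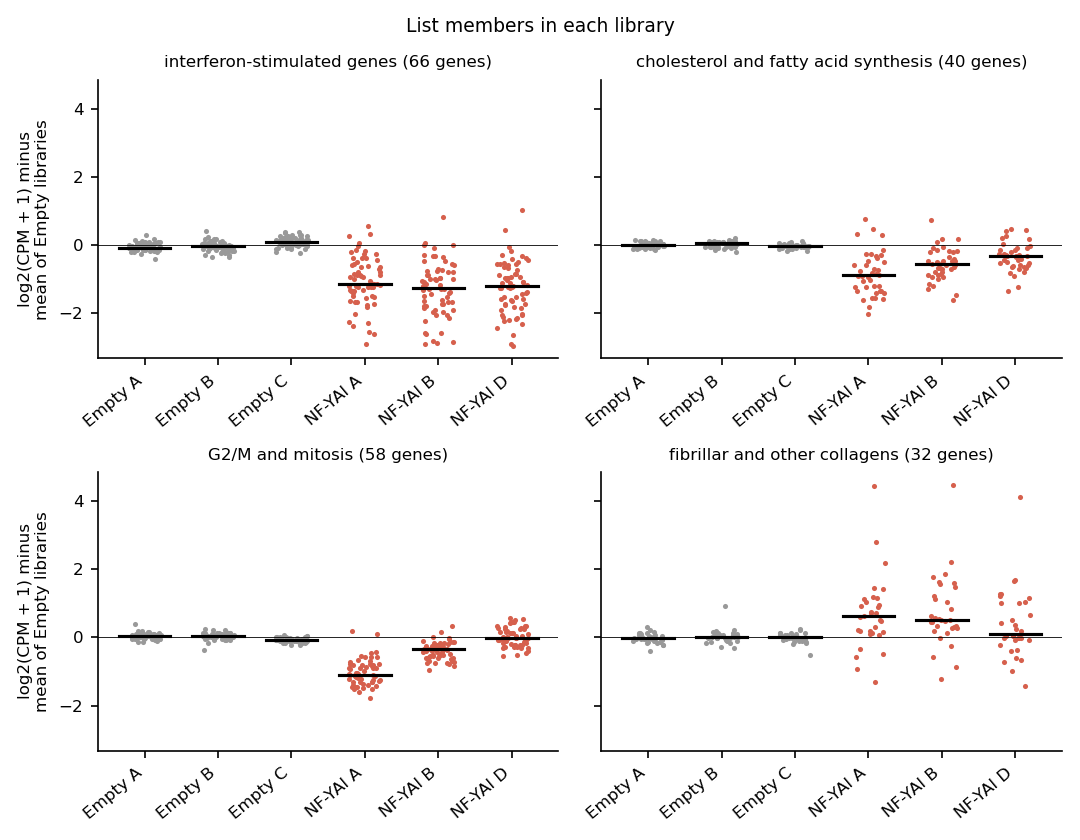
Each point is a gene of the named list in 1 library, as log2(CPM + 1) minus the mean of the 3 Empty libraries (y axis), and black lines are medians. Interferon-stimulated genes sat near -1.2 in all 3 NF-YAl libraries, whereas the G2/M medians were -1.09, -0.35 and -0.02 in NF-YAl A, B and D.

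Genes of sterol and fatty acid synthesis were lower too. Of 40 tested, 7 fell and none rose (list median -0.60), and 21 were lower at an adjusted p under 0.01 alone, which 9.54% of all tested genes were. SCD, the desaturase that makes oleate, read 998, 1142 and 1109 CPM in Empty and 305, 352 and 429 CPM in NF-YAl, a log2 fold change of -1.58 (SE 0.14, adjusted p = 7.15e-06). INSIG1, which holds the sterol sensor in the endoplasmic reticulum, read 117, 102 and 108 CPM against 25.8, 43.9 and 69.4 CPM (-1.23, SE 0.25). NF-YAl D was the least reduced for both genes. MSMO1 and NSDHL, which remove methyl groups in cholesterol synthesis, fell by 1.14 and 1.37. NSDHL lies in a stretch of the X chromosome with a block median of -0.87, and relative to it its log2 value was -0.50, inside the size limit. FADS2 was lower by a log2 value of -0.88 (adjusted p = 4.13e-04), short of the size limit, and FASN was at -0.38 (adjusted p = 0.0487). The list medians per library were -0.88, -0.56 and -0.32 in NF-YAl A, B and D. The count of 7 was 11 without NF-YAl D, 2 without NF-YAl A and 4 without Empty A. Against NF-YAs, 1 member was called in each direction.

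Glycolysis and hypoxia genes shifted by less per gene, with 5 of 40 called lower, none higher and a median of -0.45, or -0.67, -0.39 and -0.33 in NF-YAl A, B and D. GAPDH, LDHA and PGK1, enzymes of glycolysis, had log2 fold changes of -0.75, -0.74 and -0.63, at adjusted p of 0.00122, 0.00138 and 0.00627, and were not called. LDHA read 2459, 2788 and 2751 CPM in Empty and 1278, 1695 and 1828 CPM in NF-YAl, without overlap. Those that fell included hypoxia-responsive NDRG1, from 989, 1147 and 1285 CPM to 455, 527 and 580.3 CPM (-1.13, SE 0.12). EPAS1, which encodes the hypoxia-inducible factor HIF-2alpha, fell from 20.9 ± 3.53 to 6.66 ± 0.841 CPM, and the vasodilator peptide gene ADM from 65.8 ± 10.4 to 31.3 ± 6.61 CPM (SD, n = 3 each).

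Detoxification genes and metallothioneins gave 6 lower and none higher of 40 (median -0.33, and -0.45, -0.34 and -0.20 in NF-YAl A, B and D). ALDH3A1, an aldehyde dehydrogenase, fell from 26.9, 30.8 and 26.6 CPM to 7.16, 4.79 and 3.94 CPM (-2.42, SE 0.20). The metal-binding MT2A fell from 119.7, 118 and 149.9 CPM to 35.2, 39.2 and 39.6 CPM (-1.76, SE 0.16), and MT1X fell by 2.09. Metallothionein genes are close copies, so reads may be shared among them. They lie on chromosome 16 within a stretch whose median gene was at -0.68. FTH1, the ferritin heavy chain, was -0.92 on the log2 scale (adjusted p = 8.22e-05) and not called. The core of the metal response element, TGCNCNC on either strand, is in capitals below for the 2 metallothioneins named. It is a loose pattern that 63.2% of all tested promoters hold.
MT2A (chr16:56642396-56642495, plus strand): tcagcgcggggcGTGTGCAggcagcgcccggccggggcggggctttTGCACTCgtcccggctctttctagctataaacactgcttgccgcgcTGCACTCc
MT1X (chr16:56716282-56716381, plus strand): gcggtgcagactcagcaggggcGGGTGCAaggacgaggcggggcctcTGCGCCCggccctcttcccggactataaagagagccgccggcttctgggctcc

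**Figure D3:**
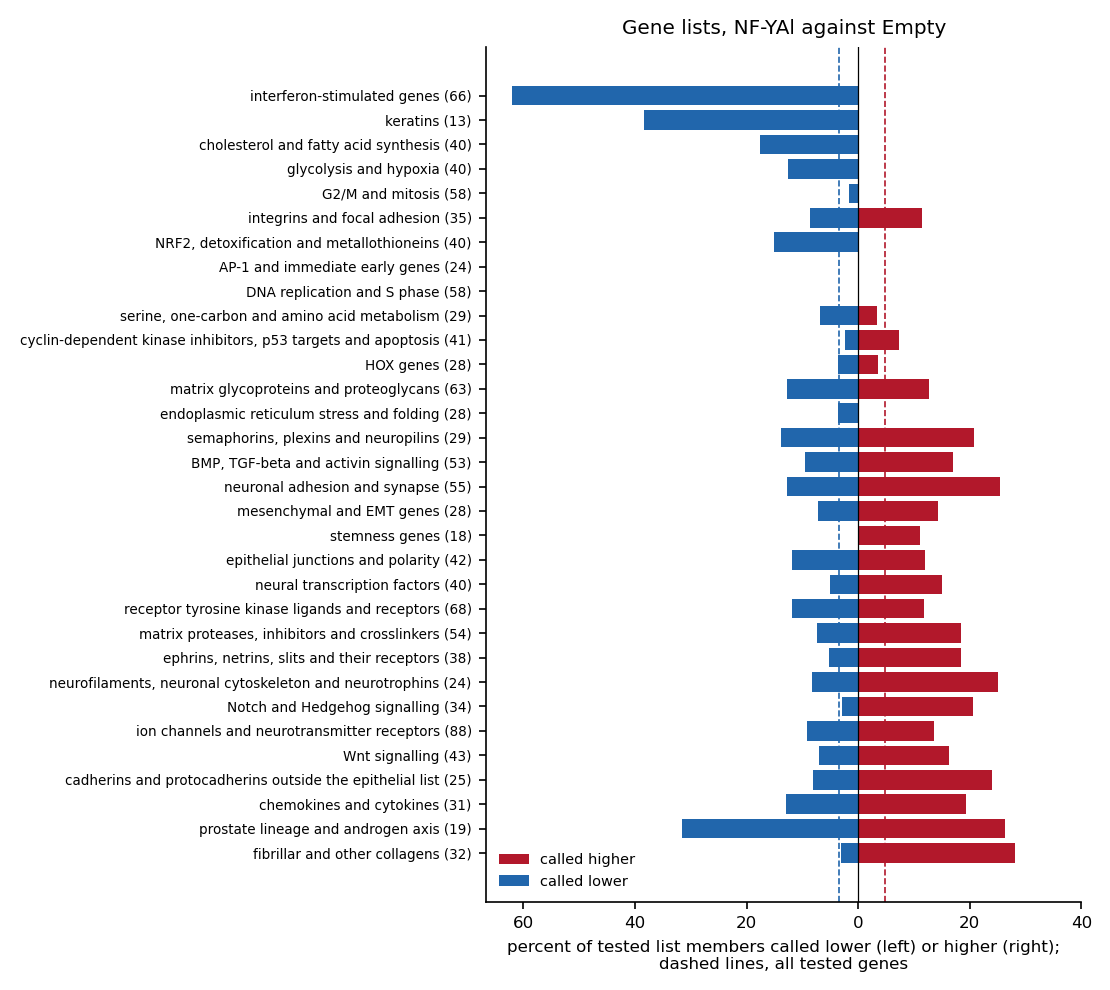
Percent of tested members called lower (left) or higher (right) for each function list with 13 or more tested members, ordered by list median, with dashed lines at 3.5% and 4.76% for all tested genes. Interferon-stimulated genes (62.1% lower) and keratins (38.5% lower) lead on the left, and collagens (28.1% higher) on the right.

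Keratins, the intermediate filaments of epithelium, had 5 of 13 members lower and none higher (median -0.71). KRT8 read 277, 313 and 268 CPM in Empty and 119.7, 112 and 109 CPM in NF-YAl (-1.33, SE 0.10, adjusted p = 2.50e-06). Its partner KRT18 was at -0.42 (adjusted p = 0.00722), short of the size limit. KRT81, a hair-type keratin, fell from 439, 420.5 and 432 CPM to 104, 111 and 154 CPM (-1.81, SE 0.14), and reads may be shared with the neighbouring copy KRT86, which fell by 1.88. KRT19 was -0.71 (adjusted p = 2.07e-04) and was not called.

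Junction genes moved both ways, 5 up and 5 down of 42 (11.9% each, against 4.76% and 3.5% of all tested genes). DSP, desmoplakin of desmosomes, fell from 98.9, 102 and 100 CPM to 34.4, 13.5 and 7.27 CPM, and NF-YAl A was less reduced than the other two (-2.46, SE 0.39). The tight junction gene CLDN4 fell from 507, 498 and 541 CPM to 146, 236 and 269 CPM, and CDH3, P-cadherin, fell by 1.63. ELF3, an epithelial transcription factor, fell from 50.4, 31.9 and 54.4 CPM to 8.33, 6.75 and 15.4 CPM, yet was 2.47 higher on the log2 scale than in NF-YAs (adjusted p = 4.77e-04). In the other direction, CLDN1 rose from 4.53, 2.901 and 2.28 CPM to 7.903, 13.4 and 20.1 CPM (2.099, SE 0.32). SPINT1, an inhibitor of epithelial serine proteases, rose by 1.16. E-cadherin, CDH1, read 6.33, 6.12 and 7.28 CPM and 9.02, 5.72 and 7.599 CPM, with overlap (adjusted p = 0.585).

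Among 28 mesenchymal genes, 4 rose and 2 fell. PDGFRA, a receptor for platelet-derived growth factor, rose from 3.52, 5.33 and 3.78 CPM to 61.1, 54.3 and 37.96 CPM, without overlap (3.598, SE 0.23, adjusted p = 9.79e-07). CDH6 and TCF4 rose by 1.81 and 1.26. CDH11, a mesenchymal cadherin, fell from 658, 818 and 682 CPM to 158, 301 and 336 CPM (-1.44, SE 0.22), and the calcium-binding S100A4 fell by 2.23. VIM (log2 fold change 0.28, adjusted p = 0.15) and SNAI2 (-0.25, adjusted p = 0.456) did not pass. SNAI2 was 2.06 lower in NF-YAl than in NF-YAs (adjusted p = 9.32e-05).

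Collagens leaned upward, with 9 of 32 higher, 1 lower and a median of 0.75. The network collagens COL4A1 and COL4A2 of basement membranes rose, COL4A1 from 34.2, 39.6 and 41.5 CPM to 107, 133 and 124 CPM (1.66, SE 0.12) and COL4A2 by 1.22. COL6A2 read 639, 816 and 679.5 CPM in Empty and 1567, 2129 and 1723 CPM in NF-YAl (1.34, SE 0.14). Its chain partner COL6A1 was at 0.98 (adjusted p = 3.25e-04), just inside the size limit, and the third chain COL6A3 went the other way at -0.94 (adjusted p = 2.09e-04). COL3A1 ranged widely, from 27.8, 70.8 and 25.5 CPM to 261, 174 and 75.8 CPM (2.04, SE 0.44). COL17A1, of hemidesmosomes, fell by 1.72, and COL1A1 did not pass (adjusted p = 0.407). The list medians per library were 0.61, 0.50 and 0.11 in NF-YAl A, B and D. Against NF-YAs, 7 collagens were lower in NF-YAl and 1 was higher: COL6A2 was 1.09 lower (adjusted p = 3.01e-04) and COL1A1 1.45 lower (adjusted p = 2.12e-04).

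Other matrix genes moved both ways, 8 up and 8 down of 63 glycoproteins and proteoglycans (12.7% each), or 7 and 5 without Empty B. SPARC, a collagen-binding matricellular protein, rose from 267, 320 and 294 CPM to 2375, 1292 and 954 CPM, with NF-YAl A highest (2.39, SE 0.26, adjusted p = 3.68e-05). SDC2, a heparan sulfate proteoglycan, rose by 2.67 and the laminin chain gene LAMA4 by 1.68. Fibrillin, FBN1, fell from 344, 468 and 427 CPM to 174, 159 and 117 CPM (-1.46, SE 0.15), and LAMB3, a chain of epithelial laminin, fell from 145, 192 and 186 CPM to 40.6, 57.5 and 49.5 CPM (-1.82, SE 0.18). The perlecan gene HSPG2 was at -0.82 and FN1 at -0.56 (adjusted p = 0.00345 and 0.0206), neither called.

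Of 54 proteases, inhibitors and crosslinkers, 10 rose (18.5%) and 4 fell (7.41%). LOX, which crosslinks collagen and elastin, rose from 10.7, 10.9 and 10.9 CPM to 54.6, 42.2 and 37.1 CPM (2.04, SE 0.14). MMP15 and ADAMTS7, metalloproteases, rose by 2.204 and 1.65. Plasminogen activator PLAT fell from 1746, 2296 and 1831 CPM to 567, 957 and 853 CPM (-1.304, SE 0.18), and the collagenase MMP13 fell from 95.3, 80.03 and 111 CPM to 28.4, 24.3 and 32.3 CPM (-1.75, SE 0.16). TIMP3, an inhibitor of metalloproteases, read 25.4, 22.2 and 16.7 CPM in Empty and 0.159, 0.0818 and 0.0822 CPM in NF-YAl, where each library was at or under 3 counts, and was thus at least 159-fold lower against a floor of 3 counts per library. TIMP3 lies within SYN3, which fell from 17.8, 19.1 and 14.96 CPM to 0.159, 0.204 and 0 CPM. Reads were aligned to transcripts and the strand setting of the counting is not given in the sources used here. Whether reads were shared between the 2 genes was not tested. Among 35 integrin and focal adhesion genes, ITGB3 rose from 3.06, 2.46 and 3.98 CPM to 48.1, 28.8 and 27.5 CPM (3.45, SE 0.23), as did ITGA7 (1.82). ITGA2, a collagen receptor chain, fell from 237, 253 and 288 CPM to 112, 94.5 and 106 CPM, and caveolin CAV1 fell by 1.37, most in NF-YAl A (53.1, 104 and 172 CPM in A, B and D).

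KDR and FLT1, which encode receptor tyrosine kinases for vascular endothelial growth factor (VEGF), rose. KDR, the main receptor for VEGF-A, read 28.2, 31.3 and 32.1 CPM in Empty and 710.5, 445 and 318 CPM in NF-YAl. All 3 NF-YAl libraries lay above every Empty library, NF-YAl A highest (4.01, SE 0.27, adjusted p = 1.39e-06), and KDR was also 1.07 higher than in NF-YAs (adjusted p = 0.00754). FLT1, a second VEGF receptor, rose from 4.32, 2.74 and 3.78 CPM to 9.92, 38.03 and 59.1 CPM, lowest in NF-YAl A (3.31, SE 0.49). EGFL7, a secreted vascular protein, rose from 0.755, 1.07 and 1.102 CPM to 11.9, 14.8 and 13.3 CPM, but VWF, von Willebrand factor, fell from 6.88, 7.31 and 6.42 CPM to 0.743, 0.941 and 0.493 CPM. Summed endothelial markers were 69.3 to 75.0 CPM in Empty and 364 to 780 CPM in NF-YAl. KDR made up under 50% of the sum in Empty and most of it in NF-YAl, where ROBO4, another vascular receptor, stood next. Of 68 receptor tyrosine kinase genes and ligands, 8 rose and 8 fell (11.8% each). FGF1 fell from 33.1, 54 and 40.6 CPM to 9.81, 9.73 and 8.96 CPM. FGFBP1, which frees fibroblast growth factors from the matrix, fell from 145, 169 and 179 CPM to 4.99, 13.6 and 21.2 CPM (-3.62, SE 0.36). IGFBP4 and IGFBP6, which bind insulin-like growth factors, fell by 1.96 and 1.87, IGFBP4 from 387, 395 and 339 CPM to 81.4, 97.2 and 109 CPM.

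**Figure D4:**
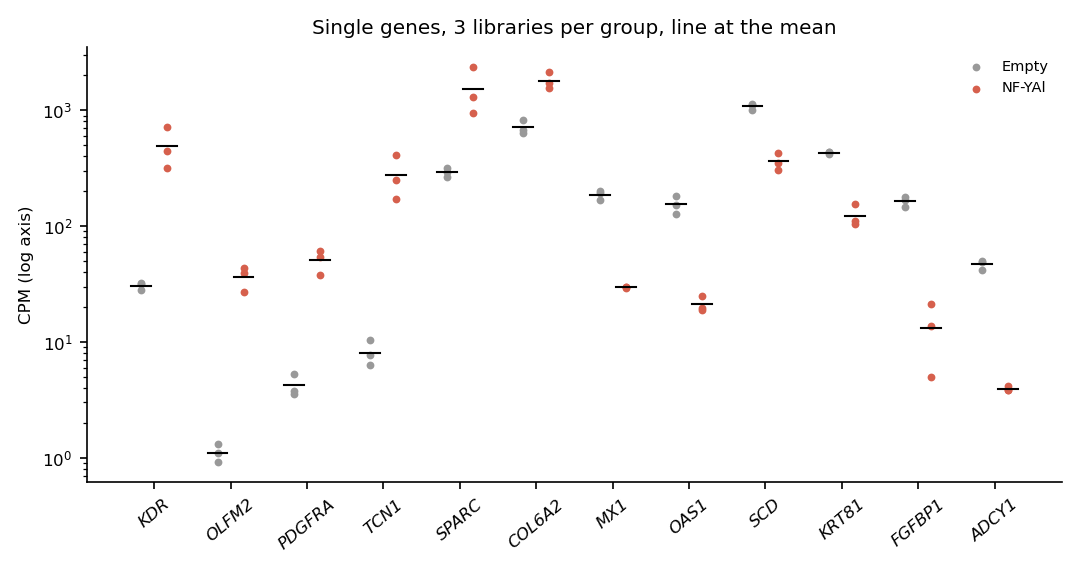
CPM on a log axis for 12 named genes, with each point 1 library (Empty grey, NF-YAl red) and a line at the mean of each group. The first 6 genes rose and the last 6 fell, and in none do the groups overlap.

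Developmental signalling lists moved in both directions. For BMP and TGF-beta signalling, 9 of 53 rose and 5 fell, or 3 fell without Empty C. The ligands BMP4 and BMP6 rose by 2.43 and 2.39, and ID3, a transcriptional target of BMP, rose from 7.42, 8.22 and 10.04 CPM to 56.5, 27.7 and 15.7 CPM. FST, follistatin, which binds activin, fell from 536, 548 and 527 CPM to 146, 189 and 183 CPM (-1.63, SE 0.11). NOG, noggin, which binds BMPs, fell from 49.4, 66.9 and 54.4 CPM to 4.51, 12.02 and 21.7 CPM (-2.14, SE 0.37). Wnt signalling gave 7 up and 3 down of 43, with 3 up without Empty A and 4 up without Empty C or NF-YAl B. The R-spondin receptor gene LGR5 rose from 1.09, 0.596 and 0.5904 CPM to 14.6, 8.83 and 6.203 CPM (3.69, SE 0.34), and the Wnt inhibitor DKK1 rose from 383, 422 and 435 CPM to 1030.0, 709.5 and 778 CPM (1.02, SE 0.13). RNF43, which removes Wnt receptors from the cell surface, fell from 6.54, 5.21 and 5.195 CPM to 1.06, 1.15 and 1.07 CPM, and WNT7A fell by 1.43. For Notch and Hedgehog, 7 of 34 rose and 1 fell. SMO, the Hedgehog signal transducer, rose from 11.5, 12.3 and 11.3 CPM to 51.9, 66.3 and 49.7 CPM (2.26, SE 0.12). DTX4, LFNG and the ligand JAG2 of the Notch pathway rose by 3.003, 2.19 and 1.203, and JAG2 was 2.63 higher than in NF-YAs (adjusted p = 1.32e-05).

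Prostate lineage genes moved in both directions, 5 up and 6 down of 19. GATA2, a zinc finger transcription factor, rose from 18.4, 26.98 and 19.9 CPM to 66.6, 53.4 and 34.3 CPM (1.24, SE 0.28) and TP63, a basal cell factor, by 1.19. TMPRSS2, an epithelial serine protease, fell from 11.7, 18.3 and 13.2 CPM to 4.402, 4.09 and 4.64 CPM, STEAP1 fell by 1.06, and KLK3 stayed at 0. FOXA1 (0.85, adjusted p = 7.84e-04) and HOXB13 (0.71, adjusted p = 3.42e-04) were higher by less than the size limit.

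Genes best known from the nervous system moved in both directions, with a majority of calls upward. For adhesion and synapse genes, 14 of 55 rose and 7 fell, or 9 rose without Empty C. NLGN1, a synaptic adhesion protein, rose from 2.35, 2.46 and 2.72 CPM to 9.97, 11.5 and 6.86 CPM, and BSN, of the presynaptic zone, by 1.81. SHANK1 and SYT7 fell by 1.74 and 1.78. Among cytoskeletal genes, 6 of 24 rose and 2 fell, or 3 rose without Empty C. The microtubule binders MAP2 and MAPT rose, MAPT from 10.4, 11.5 and 9.96 CPM to 46.7, 38.2 and 28.4 CPM (1.83, SE 0.17), while NEFL, the light neurofilament, fell from 414, 556 and 472 CPM to 194, 218 and 185 CPM (-1.27, SE 0.13). Guidance genes followed the same mixture, with 6 up and 4 down of 29 semaphorins, plexins and neuropilins and 7 up and 2 down of 38 ephrin, netrin and slit genes. SEMA3F rose from 43.95, 45.1 and 38.5 CPM to 156, 127 and 129 CPM (1.69, SE 0.11), and PLXNA2 fell by 1.80. The Eph receptor EPHA5 rose by 2.46, whereas the ligand EFNB1 fell from 245, 277 and 246 CPM to 73.3, 109 and 126 CPM (-1.31, SE 0.16). NRP1 was level, at 1717, 1999 and 1980.0 CPM and 1802, 1874 and 1851 CPM, with a log2 fold change of -0.04 (SE 0.10). Of 88 channels and transmitter receptors, 12 rose (13.6%) and 8 fell (9.09%). SCN9A, a sodium channel, rose by 3.11. Summed neuroendocrine markers were 284 to 326 CPM in Empty and 176 to 209 CPM in NF-YAl. The sum was mostly ENO2 (log2 fold change -0.68, not called), and 9 of the 14 markers were below 1 CPM in all 6 libraries. Of the 6 tested members, 1 rose and none fell, with a list median of 0.36. SYP read 0.923, 0.874 and 1.14 CPM in Empty and 1.96, 2.17 and 2.05 CPM in NF-YAl.

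Cytokine genes gave 6 up and 4 down of 31. IL1B rose from 17.6, 13.9 and 21.4 CPM to 68.8, 52.1 and 74.97 CPM (1.89, SE 0.20) and LIF, of the interleukin-6 family, from 88.1, 80.3 and 70.7 CPM to 220.1, 234 and 310 CPM (1.68, SE 0.15). The chemokine CCL2 fell from 8.51, 2.42 and 8.66 CPM to 0, 0.0818 and 0.205 CPM, and CCL26 fell by 2.55. The large changes outside the lists included TCN1, a vitamin B12 binder, from 7.63, 10.3 and 6.26 CPM to 412, 248 and 172 CPM (5.0999, SE 0.31), and OLFM2, from 1.09, 0.914 and 1.299 CPM to 43.1, 39.1 and 26.9 CPM (5.04, SE 0.22). COX7B2, a subunit of cytochrome oxidase, was at or under 3 counts in every Empty library and at 8.699, 8.302 and 9.49 CPM in NF-YAl, at least 72.95-fold higher. RUNX3, a transcription factor, went from the floor to 2.76, 11 and 11.2 CPM, lowest in NF-YAl A and at least 68.8-fold higher. ADCY1, an adenylate cyclase, fell from 42.1, 48.9 and 50.4 CPM to 4.19, 3.803 and 3.82 CPM, with the smallest adjusted p of all tested genes (-3.58, SE 0.13, adjusted p = 5.06e-08), and was 3.48 lower than in NF-YAs. ZNF516, a zinc finger factor, fell by 3.43 and was 3.93 lower than in NF-YAs (adjusted p = 1.55e-07). The antigen gene MAGEA6, whose reads may be shared with other MAGEA genes, fell from 46.3, 48.8 and 45.5 CPM to 6.21, 1.799 and 1.56 CPM.

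Cell cycle genes, the classic NF-Y targets, divided the NF-YAl libraries. Of 58 G2/M genes, 1 fell and none rose, and of 58 replication genes none was called. At an adjusted p under 0.01 alone, 4 and 7 members were lower, shares near the 9.54% of all tested genes. Yet only 2 and 11 members had a positive fold change, against 8735 of all 17108 tested genes, and the list medians were -0.38 and -0.26. All NF-YAl libraries lay below all Empty libraries for 18 and 14 members, and above them for 0 and 2. Over all tested genes these counts were 3657 and 3591. Against NF-YAs, 55 members of each list had a negative fold change (medians -0.58 and -0.42), as had 8225 of all tested genes. The G2/M median was -1.09 in NF-YAl A, -0.35 in NF-YAl B and -0.02 in NF-YAl D, while the Empty libraries stayed between -0.08 and 0.05. The replication medians were -0.78, -0.14 and 0.01. MKI67 read 310.2, 291 and 260.1 CPM in Empty and 155, 263 and 253 CPM in NF-YAl, so NF-YAl B and D lay at or near the Empty range and NF-YAl A at 155 CPM did not (adjusted p = 0.116). RRM2, of deoxynucleotide synthesis, read 155, 143 and 127 CPM and 63.1, 111 and 149.9 CPM. The member that fell was PTTG1, securin, from 55.5, 64.4 and 58.4 CPM to 16.7, 30.2 and 40.5 CPM (-1.02, SE 0.22, adjusted p = 0.00434). Without NF-YAl D, 8 G2/M genes were called lower, and without any other of the 6 libraries none was. The lipid synthesis, glycolysis and detoxification lists were likewise lowest in NF-YAl A and closest to Empty in NF-YAl D, and whether cell cycle differences had a part in them was not tested.

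Some calls named above did not hold when 1 library was left out, always with the direction kept. Without NF-YAl A, the log2 fold change was -0.92 for ADM, -0.94 for INSIG1, -0.93 for MSMO1, -0.93 for STEAP1, 0.85 for DKK1, 1.01 for GATA2 and -0.75 for PTTG1, and none of the 7 was called. Without NF-YAl B, calls were lost for CAV1 (-1.34), COL3A1 (2.02), GATA2 (1.21), INSIG1 (-1.19), MSMO1 (-0.98) and PTTG1 (-1.05), and without NF-YAl D for IRF9 (-0.95). Empty libraries decided calls as well. Without Empty A the calls of CAV1 (-1.39), COL3A1 (1.84), DKK1 (0.98), GATA2 (1.14), ID3 (1.87), INSIG1 (-1.16), MSMO1 (-1.05) and PTTG1 (-1.06) were lost. Without Empty B this held for CAV1 (-1.36), MSMO1 (-1.21) and PTTG1 (-0.96). Without Empty C it held for ADM (-0.97), CAV1 (-1.36), COL3A1 (1.79), GATA2 (1.18), HERPUD1 (-0.9997), IRF9 (-0.98), MSMO1 (-1.14) and PTTG1 (-1.04). COL6A1 became called without Empty B (1.06) or NF-YAl A (1.12), COL6A3 without Empty A (-1.03) and HSPG2 without NF-YAl B (-1.06).

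Changes were not spread evenly over the genome. Tested genes were split along GRCh37 into 296 blocks of 50 to 61 neighbours, and Empty libraries stayed within 0.0973 of the Empty mean in every block. In NF-YAl, 22 block medians exceeded a log2 fold change of 0.3 and 12 were below -0.3, and each of the 34 had the same sign in NF-YAl A, B and D. On chromosome 16, split here after its values were seen, the first 7 blocks (351 genes, up to position 31095517) had medians from -0.13 to -0.03, with 4 genes called lower. The remaining 6 blocks (300 genes, 31094758 to 90244752) had medians from -0.68 to -0.35, with 32 called lower, 6 higher and only 43 of the 300 with a positive fold change. That stretch includes MT2A and MT1X, CDH3, CDH11 and the stress gene HERPUD1, which fell by 1.10. Relative to its block, HERPUD1 was at -0.54 and CDH11 at -0.87, inside the size limit, while MT2A (-1.08), MT1X (-1.404) and CDH3 (-1.103) stayed beyond it.

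The lowest block lay at the end of the X chromosome (151867214 to 154948759), with a median of -0.87, 16 of 53 genes called lower and none higher, NSDHL and MAGEA6 among them. A block of chromosome 21 (35445524 to 44847011) stood at -0.35, with 13 of 61 called lower, MX1, MX2 and TMPRSS2 among them. Upward stretches lay on chromosome 3 (170177336 to 197917236, block medians 0.44 to 0.55), on chromosome 6 (93949738 to 143832857, 0.36 to 0.51) and on chromosome 1, where a block (94994729 to 110174673) had the highest median at 0.60. Against NF-YAs, the same block medians were 0.34 to 0.41 on chromosome 3, 0.10 to 0.24 on chromosome 6 and 0.07 on chromosome 1. Over the whole of chromosome 16, the median log2 fold change was -0.23 against Empty and -0.06 against NF-YAs. Of the genes in blocks below -0.3, 12.8% fell, and of those in blocks above 0.3, 11.9% rose. These blocks were picked by their values, which are given as a description with no test. DNA copy number was not measured in these samples and its part was not tested. When each gene was set against its block median, a check added after the data were seen, 690 genes rose and 483 fell. Of the named genes that rose or fell, 12 then lay inside the size limit, none with the sign turned. They were NSDHL (-0.50), HERPUD1 (-0.54), TP63 (0.75), ADM (-0.79), IFITM3 (-0.81), NEAT1 (-0.85), CDH11 (-0.87), PTTG1 (-0.88), GATA2 (0.92), STEAP1 (-0.97), IRF9 (-0.97) and DKK1 (0.996).

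**Figure D5:**
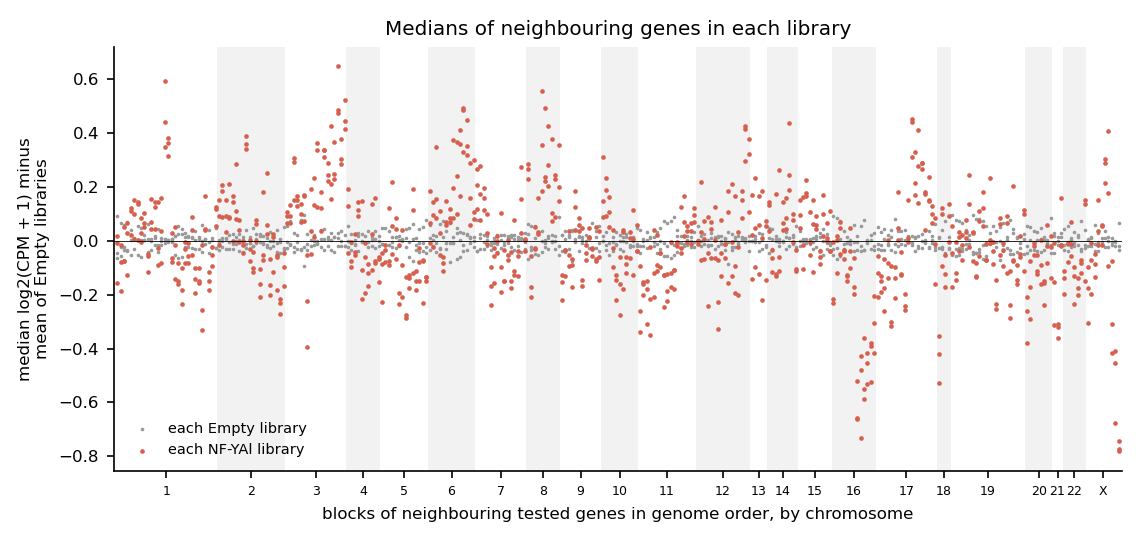
Each point is the median over a block of 50 to 61 neighbouring tested genes in 1 library, as log2(CPM + 1) minus the Empty mean (y axis), in genome order with chromosomes shaded in turn (x axis). Empty libraries (grey) stay within 0.0973 of 0, while NF-YAl libraries (red) share raised stretches on chromosomes 1, 3 and 6 and lowered stretches on chromosome 16 and at the end of X. NF-YAs libraries are not shown.

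At transcript level, 293 of 34671 tested transcripts rose (0.845%) and 317 fell (0.914%). Of these, 261 and 259 belonged to genes called in the same direction, 32 and 58 to genes not called, and none to a gene called the opposite way. The transcript counts depend strongly on the test, since DESeq2 called 1017 higher and 886 lower, and on the libraries. Without Empty A, B or C, 87, 65 and 65 were higher and 135, 83 and 84 lower. Without NF-YAl B, 90 were higher and 128 lower, and without NF-YAl A 193 were higher. Among 7966 genes with several kept transcripts, 16 (0.201%) were called for changed transcript usage (diffSpliceDGE, Simes test, adjusted p under 0.01). NEAT1, the nuclear RNA that builds paraspeckles, gave the widest change. Its long form NR_131012.1 took 92.6, 81.2 and 87.7% of NEAT1 TPM in Empty and 40.8, 58.5 and 49.2% in NF-YAl, and the short form NR_028272.1 took the rest (usage adjusted p = 0.00170). NEAT1 as a gene fell from 7735, 4546 and 6339 CPM to 3738, 2699 and 2386 CPM (-1.08, SE 0.21), a call lost without Empty A (-0.88), Empty C (-1.06), NF-YAl B (-1.02) or NF-YAl D (-0.95). The short form lies inside the long one, so the division of reads between them rests on the long form's own part.

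ISYNA1, which makes inositol phosphate, rose from 5.202 ± 0.0716 to 15.4 ± 5.79 CPM (SD, n = 3 each). Its transcript NM_016368.4 was listed at 0 in every Empty library and took 34.8, 26.4 and 32.9% of ISYNA1 TPM in NF-YAl (usage adjusted p = 0.00210). FAM208B was not called as a gene, but NM_017782.4 took 22.3, 36.9 and 19.1% of its TPM in Empty and 0.09, 1.86 and 6.56% in NF-YAl (usage adjusted p = 0.00451). These 3 genes met the rule of a change of at least 20 points without overlap. FN1, named here after its values were seen, changed by less: NM_001306129.1 took 0.96, 2.19 and 2.19% of FN1 TPM in Empty and 19.4, 15.4 and 19.7% in NF-YAl, while FN1 as a gene was not called (usage adjusted p = 5.90e-04). An exact 0 can be a failed division of reads by RSEM, so ISYNA1 carries no fold change. CHD3, CNOT2, SRRM1, HLTF, PITPNB, SUPT6H, GAB2 and ZNF322, also called for usage, likewise hold a transcript listed at 0 in every library of a group. What part such zeros had in the usage calls was not tested.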

How the data were processed

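Total RNA from pooled spheroids was sequenced from stranded libraries. Per the labels and methods, the authors aligned reads to hg19 with Bowtie2 within RSEM and deposited expected counts and TPM (relative transcript abundance) for genes and transcripts, with the percent of each gene's TPM that a transcript takes (isoform percentage, deposited by the authors) and transcript lengths, which were not used in any test. The strand setting is not given in the sources used here. No column of the tables was left without a sample.

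Expected counts were rounded to whole numbers. Genes kept by filterByExpr were tested with edgeR 4.0.16 (R 4.3.3) by the quasi-likelihood test with TMM scaling, all 9 libraries in 1 fit and Benjamini-Hochberg adjustment over all tested genes. Every adjusted p in the text is from this fit, or from diffSpliceDGE for transcript usage, and SE is that of the log2 fold change. Calls needed an adjusted p under 0.01 and an absolute log2 fold change above 1. CPM use TMM-scaled library sizes. A floor of 3 counts in a library is 0.118 to 0.159 CPM, covering counting error only. On simulated counts the gene test recovered 200 of 200 changed genes with 5 false calls among 16942 tested, and the transcript test 200 of 200 with 1 false call among 33644. The usage test recovered 128 of 146 genes with 8 false calls among 7784. For simulated transcripts, DESeq2 recovered 199 of 200 with 2 false calls among 34671. On the deposited libraries, however, DESeq2 called 1017 transcripts higher and edgeR 293. The simulation changed only features with high counts, all by the same amount up or down, and set the same spread for every feature. Changes in features with low counts and smaller changes were not simulated. How far recovery on simulated counts holds for the deposited libraries was not tested.

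Named genes are the NF-Y subunits, the 10 genes the study measured by RT-qPCR, the 15 largest changes in each direction, up to 4 called genes per direction from each of 40 lists, and the 3 highest members of each list. Called genes among them did not overlap between groups and reached a mean of 5 CPM in one or both groups. EPCAM is a cell type marker, and promoter examples follow the rule given beside them. Some results are not reported here. Members and lists were chosen with earlier results of these data known. Promoters were read from GRCh37 at the canonical GENCODE start, found for 15160 of 17108 tested genes. All NF-YAl comparisons come from 1 fit and share the NF-YAl libraries. Alternatives were DESeq2 1.42.0, RLE scaling, other filters, 2 groups only, the replicate letter as a block, a laxer threshold and leaving out each library. Setting genes against their neighbours was added after the data were seen.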

Additional observations from a re-analysis of the deposited data

Results flagged for a closer look

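The effects of the 2 isoforms against the same Empty libraries differed for 40 of the named genes, by the edgeR test of NF-YAl against NF-YAs itself (adjusted p under 0.01, log2 fold change beyond 1 in size). Over all tested genes, 1.74% were higher and 2.86% lower in that test. Many named genes were picked by their change in the same NF-YAl libraries, so their share cannot be set against these. The other named genes did not pass, OLFM2 (0.54), PDGFRA (-0.32), RUNX3 (-0.36), SMO (0.05) and SCD (-0.02) among them. Values are log2 fold changes of NF-YAl over NF-YAs. Among interferon-stimulated genes, those lower in NF-YAl were BST2 (-1.70), IFI27 (-2.05), IFI6 (-1.15), IFITM3 (-1.15), LGALS3BP (-1.27), MX1 (-2.01), MX2 (-1.35), OAS1 (-1.31) and OAS3 (-1.23). Lower matrix genes were COL1A1 (-1.45), COL6A1 (-1.03), COL6A2 (-1.09), COL6A3 (-1.73), LAMB3 (-1.34) and TIMP3 (-3.55). Other genes lower in NF-YAl were ADCY1 (-3.48), IGFBP4 (-1.23), LINC01234 (-2.97), MAGEA6 (-3.03), MT2A (-1.25), NEFL (-1.05), RNF43 (-1.97), SHANK1 (-2.33), SNAI2 (-2.06), SYN3 (-3.34), VWF (-3.10), WNT7A (-1.30) and ZNF516 (-3.93). The genes higher in NF-YAl were CDH1 (1.503), CDH3 (1.61), CLDN1 (1.88), COX7B2 (2.53), EGFL7 (1.03), ELF3 (2.47), FOXA1 (1.84), GATA2 (3.10), JAG2 (2.63), KDR (1.07), LOX (1.53) and SPARC (1.07).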

How the results depend on the processing

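Of the 815 and 599 gene calls, DESeq2 shared 803 and 588 (of 859 and 617), at least 10 counts in every library 577 and 463 (of 593 and 471), and the fit without Empty C 612 and 461 (of 633 and 474). Leaving out 1 library gave 633 to 924 higher and 474 to 659 lower. Of 138 named genes, 120 kept their side of the limits under the alternatives other than centring on neighbours, which put 12 of the called genes inside the size limit, and none changed direction. Transcript counts were far less stable. The 293 higher and 317 lower became 1017 and 886 with DESeq2 and 32 and 57 with only the 2 groups compared. With at least 10 counts in every library, 455 were higher. Leaving out 1 library gave 65 to 292 higher and 83 to 272 lower. The 16 usage genes became 42 with the gene-level F test, 10 with at least 10 counts in every library, and 10 to 19 when 1 library was left out. Against NF-YAs, 298 genes were higher, 500 at an adjusted p under 0.05, and 165 to 405 when 1 library was left out. CCAAT in a window of 150 bases before the start lay in 26.2% of all, 23.2% of higher and 22.9% of lower genes, and on the plus strand alone in 20.4%, 18.5% and 17.8%. The shorter window and the single strand hold fewer letters, and the cause of the other shifts was not tested.

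The letters A and B are shared by Empty and NF-YAl. Residuals of the same letter correlated at 0.123 and 0.253, and those of different letters at -0.220 to 0.035. Fewer than 3 pairs share a letter, which is too few to decide whether the letters mark pairing. The main fit did not use the letters. With the letter as a replicate block, 905 genes rose and 642 fell, 0 transcripts were called in either direction and 6 genes changed usage. Among named genes, IRF9, LGALS3BP and NEAT1 were then not called, and FADS2 was. Of the lists, G2/M went from 1 to 14 lower and lipid synthesis from 7 to 12.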

Other observations

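Gene families were also described by the letters of their symbols, chosen after the values were seen and with no test. Of 500 tested ZNF genes, which encode zinc finger proteins, 35 rose (7%) and 4 fell (0.8%). Over all tested genes the shares were 4.76% and 3.5%. Those on chromosome 19, where many lie in clusters, gave 22 higher and 1 lower of 241 (median log2 fold change 0.13), and those elsewhere gave 13 higher and 3 lower of 259 (median 0.11), while the other tested genes of that chromosome gave 29 higher and 31 lower of 865. Replication-dependent histone genes are mostly not polyadenylated and are made in S phase. Of 61 tested HIST genes, 2 fell (3.28%, near the 3.5% of all tested genes) and none rose. Their median log2 fold change was -0.65 and only 5 were above 0.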
